A study of Mus musculus with 32 samples.

Results

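The genes described here are the chaperones and folding machinery of the endoplasmic reticulum (ER), 35 genes chosen by name for their function. They cover the Hsp70 and Hsp90 chaperones of the ER with their cochaperones, the lectin chaperones, the protein disulfide isomerases, the proteins of ER-associated degradation, the stress sensors and the translocon. They were read from 36 probes among 15964 named genes in experiment 1 and from 44 probes among 16590 named genes in experiment 2. The cells were bone marrow-derived macrophages (BMM), matured in L-cell conditioned medium as a source of macrophage colony stimulating factor, from AKR and DBA/2 mice that all lacked ApoE (ApoE-/-), ate chow and were 16 weeks old. Loaded cells received acetylated LDL (AcLDL), a modified lipoprotein that macrophages take up through scavenger receptors, for 24 h, and unloaded cells did not. Experiment 1 used cells of females with 100 µg/ml AcLDL on the MouseRef-8 v1 array, and experiment 2 used cells of males with 50 µg/ml on the Ref-8 v2 array. Each experiment had 4 groups of 4 arrays, AKR and DBA/2 cells each with and without loading. According to the paper, each chip held unloaded and loaded samples of both strains, so every group was spread over chips. The labels do not say which arrays shared a chip, so no chip term was fitted. Sex, dose, AcLDL preparation and array version changed together between the experiments, so their parts cannot be told apart.

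Secretory and membrane proteins enter the ER through the Sec61 channel and are folded there by BiP, the Hsp70 encoded by Hspa5, by the lectin chaperones calnexin and calreticulin, and by disulfide isomerases. Proteins that fail to fold are drawn back out by a membrane complex around the ubiquitin ligase Hrd1, encoded by Syvn1, and degraded. Sensors in the ER membrane, encoded by Ern1, Atf6 and Eif2ak3, watch this balance, and the pathway they start is called the unfolded protein response. Free cholesterol that reaches the ER membrane of macrophages is a known trigger of that response. Atf6 and Xbp1, the transcription factor that the Ern1 product activates by splicing its mRNA, act on genes with the ER stress element, whereas the Eif2ak3 product PERK acts through Atf4.

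The ER stress element is CCAAT, 9 bases of any kind and CCACG, and it was searched for on both strands in the 250 bases before the start of each gene. It was present in 9 of the 28 members with a promoter in the RefSeq table used here (32.1%), against 0.13% of 27025 genes. The 9 were Hspa5, Hsp90b1, Dnajc3, Calr, Canx, Pdia6, Creld2, Syvn1 and Derl3. The related element ERSE-II, which is ATTGG, 1 base of any kind and CCACG, was found in Herpud1 alone among the members and in 0.037% of all genes; its CCACG part is shared with the ER stress element. The UPRE motif TGACGTGG was found in Txndc5 alone among the members and in 0.603% of genes. The motif TGATGCAAT, bound by Atf4 with C/EBP partners, was in none of the 28 promoters and in 0.192% of genes. Each match is a run of letters and not a shown binding site. The members were chosen for their function in the ER, so these shares describe them and test nothing. The windows below, with the motif parts in capitals and 10 bases on either side (GRCm38.p6, RefSeq, each written in the direction of its gene), are those of Herpud1, whose values moved the most with loading in DBA/2 cells, of Pdia6, and of Hspa5, the marker gene of the response. 
Herpud1, chr8:94386367-94386397, plus strand: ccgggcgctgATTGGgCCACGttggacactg
Pdia6, chr12:17266481-17266519, plus strand: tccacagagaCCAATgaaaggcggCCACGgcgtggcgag
Hspa5, chr2:34772015-34772053, plus strand: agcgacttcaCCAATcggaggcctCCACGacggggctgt
Pdia3, Pdia4 and P4hb had a promoter entry and none of these longer motifs in it.

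Values are log2 probe values as the authors deposited them. A gene was tested when at least 1 of its 4 group means was above the array-wide median (5.98 in experiment 1, 4.29 in experiment 2), which kept 26 members in experiment 1, 25 in experiment 2 and 20 in both, 15 of these through the same probe. Dnajb11, Hspa13, Derl3 and Ssr1 were tested in neither. In experiment 1 there was no probe for Dnajb9, Dnajb11, Eif2ak3 and Ssr1, and Hspa13, Dnajc3, Dnajc10, Calr and Derl3 were below the median. In experiment 2 there was no probe for Dnajb11, Sdf2l1 and Atf6, and Hspa13, Canx, Manf, Derl1, Derl3, Ern1 and Ssr1 were below it. A difference is called when the adjusted p is under 0.01 (limma, Benjamini-Hochberg over all probes tested), and log2 differences are given with their standard error. The design text speaks of biological replicates and the methods of dishes in quadruplicate, and neither says that each came from its own mouse, so the p-values rest on variation among cultures that may be technical. Since RNA of whole cultures was measured, fewer cells of a type and less RNA per cell cannot be told apart.

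Of the 8 macrophage markers checked, 6 were read from a probe by name, Adgre1, Cd14, Fcgr1, Itgam, Lyz2 and Mertk. All 6 were above the median in both experiments. Cd68 and Csf1r were not read here, and the paper reports Cd68 as higher with loading in AKR cells of both experiments. It also lists Fcgr1 among the transcripts most significantly lowered by loading in experiment 2. Their summed linear level was 30439 to 31838 in loaded AKR cells of experiment 1, below the 38231 to 41342 of the other 3 groups, and in experiment 2 it was 20004 to 24248 in AKR and 25912 to 29530 in DBA/2 cells. In experiment 2, 2 arrays went against their labels. The array labelled male AKR unloaded replicate 1 correlated at 0.968 with its own group and at 0.980 with loaded AKR, and the array labelled male AKR loaded replicate 2 at 0.971 with its own group and at 0.980 with unloaded AKR, while the other 14 arrays of that experiment and all 16 of experiment 1 were closest to their own group. The counts of called members that involve AKR cells of experiment 2 are therefore given as labelled and without these 2 arrays, with 3 arrays left in each AKR group. The 2 arrays were picked from these same values, so leaving them out favours larger AKR loading differences and a smaller spread. The adjusted p values without the 2 arrays do not allow for this choice. Among markers of other cells, the summed linear level of 4 stromal genes moved with strain in experiment 1. It was 193 to 207 in unloaded AKR, 202 to 215 in loaded AKR, 282 to 340 in unloaded DBA/2 and 433 to 515 in loaded DBA/2 cells, with Dcn alone above the median. In experiment 2 the stromal sum was 57 to 86 in AKR and 69 to 146 in DBA/2 cells, and the sum of 3 B cell genes, of which Cd79b was above the median, was 41 to 57 in AKR, 74 to 102 in unloaded DBA/2 and 57 to 70 in loaded DBA/2 cells. In experiment 1 the B cell sum, with Cd79b and Ms4a1 above the median, was 202 to 238 in unloaded and 175 to 185 in loaded AKR cells. It was 208 to 227 in unloaded and 182 to 201 in loaded DBA/2 cells. The sum of 5 plasma cell genes, of which Irf4 and Sdc1 were above the median and Jchain, Mzb1 and Prdm1 were not, was 314 to 384 over all groups of experiment 1. In experiment 2 without the 2 arrays it was 92 to 103 in unloaded AKR and 124 to 162 in loaded AKR cells. It was 83 to 108 in unloaded DBA/2 and 93 to 107 in loaded DBA/2 cells. Probes all at the array-wide median would sum to 252 for the stromal, 189 for the B cell and 315 for the plasma cell genes in experiment 1. In experiment 2 they would sum to 78 for the stromal, 59 for the B cell and 98 for the plasma cell genes. These sums of other cells are thus near the dim end of the arrays.

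**Figure D1:**
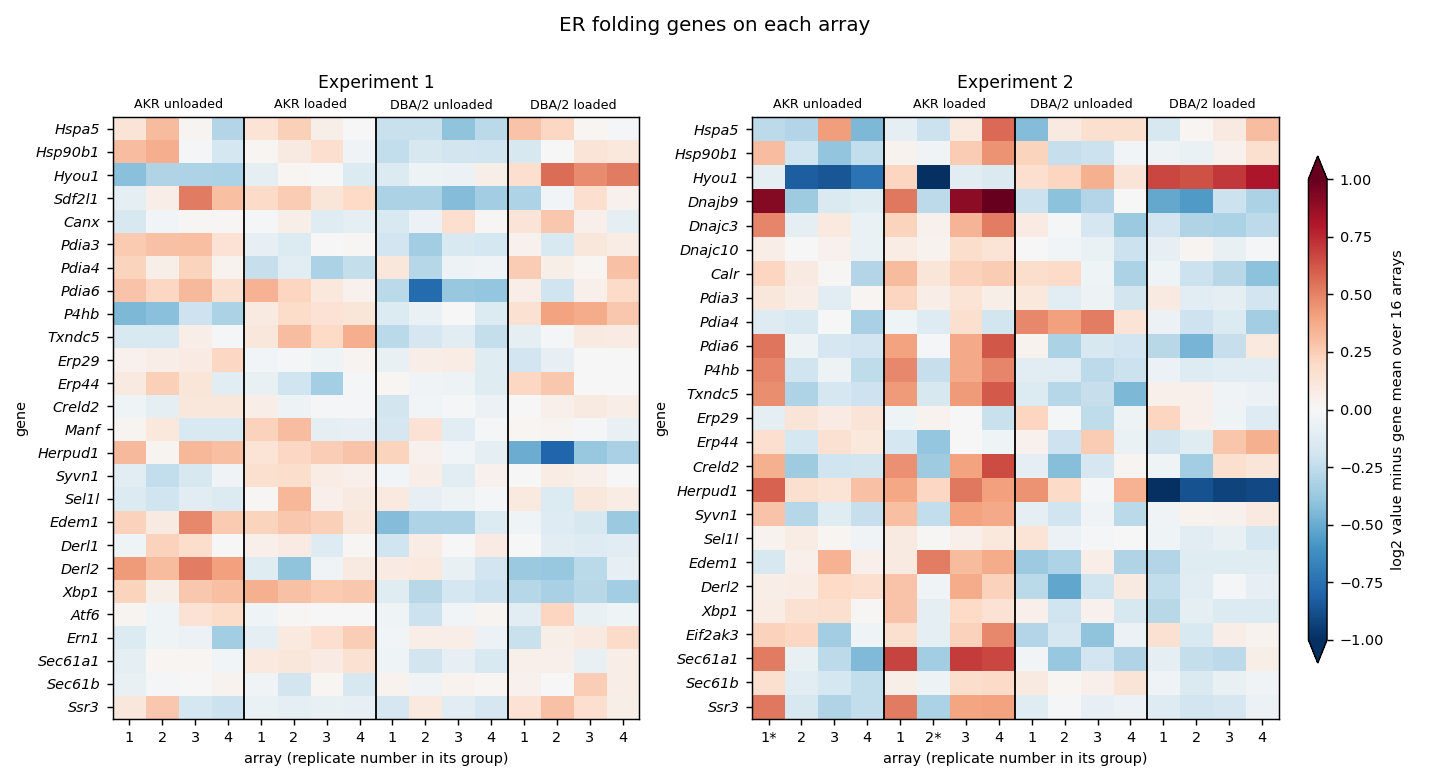
Log2 value of each tested ER folding gene (y axis) on each array (x axis, by group and replicate) minus the gene's mean over the 16 arrays of its experiment, with colours capped at 1 log2 either way. Asterisks mark the 2 AKR arrays of experiment 2 that went against their labels, and the loaded DBA/2 arrays are low in Herpud1 in both experiments.

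The first question was how loading changed these genes in AKR cells. In experiment 1, 5 members rose and 3 fell, which is 8 of 26 where 31.3% of all genes tested were called (16.2% higher, 15.1% lower). P4hb, the founding protein disulfide isomerase, rose the most, by 0.48 ± 0.069 log2 (adjusted p = 4.27e-06). Txndc5, another thioredoxin-fold isomerase, rose by 0.31 ± 0.072, and Hyou1, a large Hsp70 relative that serves BiP as a nucleotide exchange factor, by 0.28 ± 0.077. The rest of the isomerases did not follow P4hb. Pdia4 fell by 0.36 ± 0.083 log2 (adjusted p = 0.00109), and Pdia3, the isomerase that works on glycoproteins with the lectin chaperones, fell by 0.30 ± 0.071 (adjusted p = 0.00138).

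The degradation genes also moved in opposite directions in AKR cells. Syvn1, the ubiquitin ligase Hrd1, rose by 0.25 ± 0.064 log2 and its partner Sel1l by 0.26 ± 0.075. Derl2, a derlin of the same membrane complex, fell by 0.53 ± 0.092 (adjusted p = 4.88e-05). A second probe of Derl2 fell by 0.25 (adjusted p = 0.0041). Sec61b, a translocon subunit, had probes that disagreed, with -0.08 log2 on the one used and -0.32 on the second (adjusted p = 0.00302). BiP itself, Hspa5, showed a difference of 0.07 ± 0.097 log2 (95% interval -0.13 to 0.27, adjusted p = 0.624), and Hsp90b1, the ER Hsp90, one of -0.06 ± 0.094 (adjusted p = 0.676). The macrophage and B cell marker sums were lower in loaded than in unloaded AKR cells, and their part in these differences was not tested. The median over the 26 members was -0.03 log2, beside 0.01 over all genes, and 11 of the 26 had a positive value. Without loaded AKR replicate 2 the count of called members dropped to 5, as Hyou1, Syvn1 and Sel1l no longer passed (highest adjusted p over all arrays left out in turn, 0.0178, 0.0133 and 0.0394). Other arrays that took these calls away when left out were unloaded AKR replicate 1 and loaded AKR replicate 3 for Hyou1, and unloaded AKR replicate 2 and loaded AKR replicate 1 for Syvn1, while for Sel1l it was any of the 4 unloaded AKR arrays or loaded AKR replicate 4.

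In loaded DBA/2 cells of experiment 1 the called members were partly other ones. Whether a response differed between the strains is given by the interaction below. BiP, Hyou1, P4hb and Pdia6 rose and Herpud1 fell, 5 of 26 members where 12.8% of all genes were called (6.42% higher, 6.40% lower). Hspa5 rose by 0.41 ± 0.097 log2 (adjusted p = 0.00351), Hyou1 by 0.48 ± 0.077 (adjusted p = 5.77e-05), Pdia6, an isomerase found in complex with BiP, by 0.48 ± 0.095 (adjusted p = 0.000693) and P4hb by 0.38 ± 0.069 (adjusted p = 0.000226). Herpud1, a membrane protein with a ubiquitin-like domain that organises the Hrd1 complex and is a common marker of ER stress, fell by 0.53 ± 0.092 (adjusted p = 0.000142). Hyou1 and P4hb thus rose in both strains. The median over the members was 0.12 log2, beside 0.01 over all genes, and 21 of the 26 had a positive value. The call of Hspa5 was lost without loaded DBA/2 replicate 1, loaded DBA/2 replicate 2 or unloaded DBA/2 replicate 3 (highest adjusted p = 0.0172), and the other 4 calls were kept whichever array was left out. The stromal and B cell sums given above also differed between unloaded and loaded DBA/2 cells, and their part in these differences was not tested.

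BiP is shown array by array. In experiment 1 Hspa5 had log2 values of 7.97, 8.16, 7.87 and 7.55 in unloaded AKR cells and of 7.98, 8.08, 7.90 and 7.85 in loaded AKR cells. It had values of 7.62, 7.62, 7.44 and 7.57 in unloaded DBA/2 cells and of 8.13, 8.05, 7.86 and 7.83 in loaded DBA/2 cells. All 4 loaded DBA/2 arrays lay above all 4 unloaded ones, while the AKR ranges overlapped with loading. The interaction, which is the loading response of DBA/2 minus that of AKR cells, was 0.34 ± 0.14 log2 for Hspa5 and was not called (adjusted p = 0.0726), so a difference in its response between strains was not shown. Hyou1 was lowest in unloaded AKR cells, at 6.68, 6.80, 6.79 and 6.78, and stood at 7.01, 7.12, 7.10 and 6.96 in loaded AKR, 6.96, 7.05, 7.04 and 7.16 in unloaded DBA/2 and 7.27, 7.66, 7.57 and 7.62 in loaded DBA/2 cells. Loaded and unloaded arrays did not overlap in either strain.

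The second question was which members responded to loading differently in the 2 strains. In experiment 1 the interaction was called for 4 of 26 members, where 15.8% of all genes were called (7.61% higher, 8.20% lower). The 3 with a positive value were disulfide isomerases with a more positive response in DBA/2 cells, at 0.59 ± 0.12 log2 for Pdia4 (adjusted p = 0.000629), 0.54 ± 0.10 for Pdia3 (adjusted p = 0.000282) and 0.54 ± 0.13 for Pdia6 (adjusted p = 0.00434). The other was Herpud1, with a more negative response in DBA/2 cells of -0.50 ± 0.13 (adjusted p = 0.00622). The isomerase and Herpud1 differences therefore had opposite signs. Among the other isomerases the interaction was not called. Second probes of Sec61b, at 0.46 log2 (adjusted p = 0.00608), and Derl2, at 0.34 (adjusted p = 0.00998), were also called for the interaction, while the probes used for these genes, at 0.15 and 0.28, were not. The median over the members was 0.15 log2, beside 0.00 over all genes.

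Pdia3 had log2 values of 11.37, 11.40, 11.41 and 11.25 in unloaded AKR, 11.03, 10.97, 11.11 and 11.12 in loaded AKR, 10.92, 10.76, 10.96 and 10.93 in unloaded DBA/2 and 11.15, 10.96, 11.22 and 11.18 in loaded DBA/2 cells. The unloaded AKR arrays were above all the others, and the loaded cells of the 2 strains overlapped. Pdia4 had values of 8.73, 8.57, 8.73 and 8.54 in unloaded AKR, 8.28, 8.40, 8.19 and 8.27 in loaded AKR, 8.62, 8.22, 8.46 and 8.47 in unloaded DBA/2 and 8.76, 8.57, 8.53 and 8.80 in loaded DBA/2 cells. Here the loaded strains were apart, with every DBA/2 array above every AKR array. Pdia6 had values of 7.44, 7.36, 7.48 and 7.32 in unloaded AKR, 7.50, 7.37, 7.26 and 7.20 in loaded AKR, 6.89, 6.39, 6.78 and 6.77 in unloaded DBA/2 and 7.22, 6.96, 7.21 and 7.35 in loaded DBA/2 cells. Its unloaded DBA/2 arrays lay below all the rest.

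Herpud1 in experiment 1 had log2 values of 8.28, 7.98, 8.29 and 8.26 in unloaded AKR, 8.09, 8.16, 8.20 and 8.24 in loaded AKR, 8.18, 8.0, 7.93 and 7.86 in unloaded DBA/2 and 7.46, 7.16, 7.58 and 7.63 in loaded DBA/2 cells. The 4 loaded DBA/2 arrays stood below every other array, and the other 3 groups overlapped. The interactions of Pdia3 and Pdia4 kept their calls whichever array was left out. That of Pdia6 was lost without unloaded AKR replicate 3, loaded AKR replicate 3, loaded AKR replicate 4 or loaded DBA/2 replicate 4 (highest adjusted p = 0.0124), and that of Herpud1 without any of 8 arrays, which were unloaded AKR replicate 2, unloaded DBA/2 replicates 1 and 2, loaded AKR replicates 2, 3 and 4, and loaded DBA/2 replicates 1 and 2 (highest adjusted p = 0.0174). Without loaded AKR replicate 3 the count was 2.

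In experiment 2 the same comparison again singled out Herpud1. Its interaction was -1.26 ± 0.17 log2 (adjusted p = 0.000575), the sole member called of 25 where 0.994% of all genes were called (0.588% higher, 0.406% lower), and -1.42 ± 0.15 without the 2 arrays (adjusted p = 1.71e-05). Herpud1 fell by 1.17 ± 0.12 log2 with loading in DBA/2 cells (adjusted p = 8.98e-06), and in AKR cells the difference was 0.09 ± 0.12 as labelled (adjusted p = 0.744) and 0.25 ± 0.11 without the 2 arrays (adjusted p = 0.117). Its log2 values were 10.57, 10.14, 10.12 and 10.27 in unloaded AKR, 10.37, 10.19, 10.51 and 10.39 in loaded AKR, 10.43, 10.17, 9.96 and 10.33 in unloaded DBA/2 and 8.98, 9.11, 9.05 and 9.08 in loaded DBA/2 cells. Loaded DBA/2 cells again lay below all 12 other arrays, with no overlap. A second probe of Herpud1 gave a fall of 1.28 log2 with loading in DBA/2 cells (adjusted p = 2.1e-06) and an interaction of -1.34 (adjusted p = 0.00016). Different probes read the gene in the 2 experiments. The Herpud1 calls of experiment 2 were kept whichever array was left out.

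**Figure D2:**
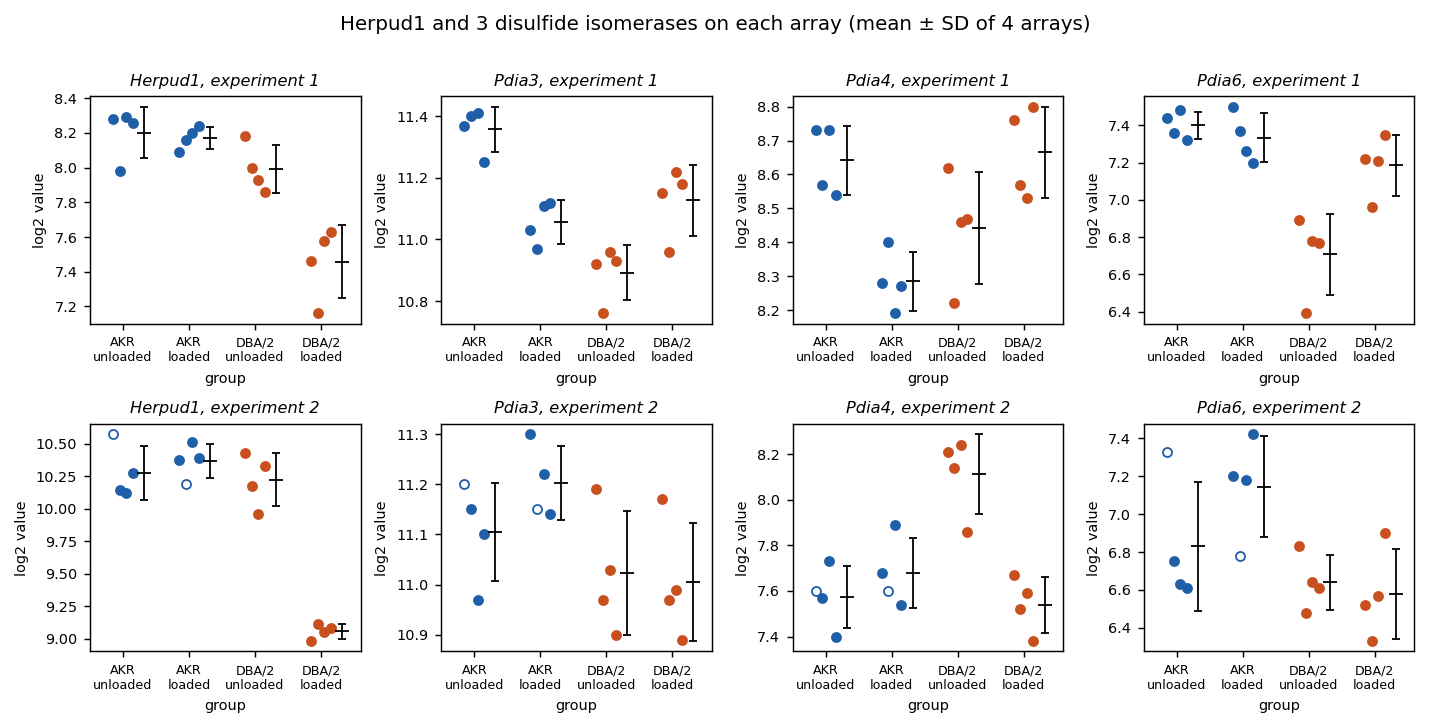
Log2 values of Herpud1, Pdia3, Pdia4 and Pdia6 (y axes, each with its own range) on the 4 arrays of each group (x axes), experiment 1 above and experiment 2 below. Bars give mean ± SD of 4 arrays, open points are the 2 arrays that went against their labels, and Herpud1 is lowest in loaded DBA/2 cells in both rows.

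The isomerases did not repeat their pattern in experiment 2. Pdia4 had log2 values of 7.60, 7.57, 7.73 and 7.40 in unloaded AKR, 7.68, 7.60, 7.89 and 7.54 in loaded AKR, 8.21, 8.14, 8.24 and 7.86 in unloaded DBA/2 and 7.67, 7.52, 7.59 and 7.38 in loaded DBA/2 cells, the unloaded DBA/2 arrays being above all but the highest loaded AKR array. It fell by 0.58 ± 0.11 log2 with loading in DBA/2 cells (adjusted p = 0.00209), and its interaction of -0.68 ± 0.16 was not called (adjusted p = 0.0297), nor was it without the 2 arrays, at -0.71 ± 0.17 (adjusted p = 0.0128). The same probe read Pdia4 in both experiments, and its interaction had opposite signs in them, a difference that was not tested. Pdia3 showed an interaction of -0.11 ± 0.13 (95% interval -0.39 to 0.17), and -0.16 ± 0.14 without the 2 arrays (adjusted p = 0.53), from values of 11.20, 11.15, 10.97 and 11.10 in unloaded AKR, 11.30, 11.15, 11.22 and 11.14 in loaded AKR, 11.19, 10.97, 11.03 and 10.90 in unloaded DBA/2 and 11.17, 10.97, 10.99 and 10.89 in loaded DBA/2 cells, all groups overlapping. Pdia6 showed one of -0.37 ± 0.24 as labelled (adjusted p = 0.5) and of -0.66 ± 0.18 without the 2 arrays (95% interval -1.03 to -0.29, adjusted p = 0.0238), not called and opposite in sign to experiment 1. It had values of 7.33, 6.75, 6.63 and 6.61 in unloaded AKR, 7.20, 6.78, 7.18 and 7.42 in loaded AKR, 6.83, 6.48, 6.64 and 6.61 in unloaded DBA/2 and 6.52, 6.33, 6.57 and 6.90 in loaded DBA/2 cells. The high unloaded and the low loaded AKR array of Pdia6 are the 2 that went against their labels.

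Loading of AKR cells in experiment 2 gave no call as labelled. None of the 25 members passed and neither did any of the 9356 genes tested (0%), although 23 of the 25 members had a positive value and their median was 0.22 log2, beside 0.01 over all genes. Without the 2 arrays 11 members rose and none fell, where 19.7% of all genes were called (10.1% higher, 9.63% lower), and the median was 0.33 log2 beside 0.01. Dnajb9, the J-domain cochaperone ERdj4 of BiP, rose the most, by 1.04 ± 0.15 log2 (adjusted p = 5.38e-05). All 3 translocon genes tested rose, Sec61a1, the pore of the channel, by 0.94 ± 0.12 (adjusted p = 2.09e-05), Ssr3, a subunit of the translocon-associated protein complex, by 0.67 ± 0.085 and Sec61b by 0.32 ± 0.085 (adjusted p = 0.00876). The probe of Sec61b used here is the second probe of experiment 1, where it fell with loading in AKR cells. Hyou1 rose by 0.79 ± 0.11, Creld2, a secreted ER stress protein, by 0.75 ± 0.14, Txndc5 by 0.71 ± 0.099, P4hb by 0.62 ± 0.089, Pdia6 by 0.60 ± 0.13, Syvn1 by 0.58 ± 0.091 and Hsp90b1 by 0.53 ± 0.13 (adjusted p = 0.00642). Hspa5 was at 0.24 ± 0.20 as labelled (adjusted p = 0.59) and at 0.30 ± 0.22 without the 2 arrays (95% interval -0.17 to 0.77, adjusted p = 0.362). Hyou1, P4hb, Txndc5 and Syvn1 were called higher with loading in AKR cells in experiment 1 too. The plasma cell sum given above was higher in loaded than in unloaded AKR cells on the same arrays, and its part in the result was not tested.

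The arrays of experiment 2 show how much those results turn on the 2 arrays. Dnajb9 had log2 values of 9.62, 8.35, 8.56 and 8.58 in unloaded AKR, 9.23, 8.44, 9.60 and 9.77 in loaded AKR, 8.49, 8.29, 8.41 and 8.70 in unloaded DBA/2 and 8.19, 8.14, 8.49 and 8.39 in loaded DBA/2 cells. Sec61a1 had values of 8.05, 7.46, 7.27 and 7.09 in unloaded AKR, 8.21, 7.18, 8.23 and 8.20 in loaded AKR, 7.50, 7.15, 7.34 and 7.23 in unloaded DBA/2 and 7.44, 7.29, 7.27 and 7.59 in loaded DBA/2 cells. In both genes the first unloaded AKR array was high, the second loaded AKR array was low, and DBA/2 cells stayed near the low AKR arrays whether loaded or not. Ssr3 showed the same with 11.04, 10.35, 10.21 and 10.26 in unloaded AKR, 11.03, 10.19, 10.90 and 10.91 in loaded AKR, 10.39, 10.50, 10.43 and 10.45 in unloaded DBA/2 and 10.38, 10.32, 10.34 and 10.45 in loaded DBA/2 cells. P4hb did so too, with 11.82, 11.13, 11.28 and 11.08 in unloaded AKR, 11.81, 11.10, 11.71 and 11.82 in loaded AKR, 11.23, 11.22, 11.07 and 11.12 in unloaded DBA/2 and 11.27, 11.20, 11.23 and 11.22 in loaded DBA/2 cells. Without the 2 arrays the interaction was called for Dnajb9 at -1.21 ± 0.19 log2 (adjusted p = 0.000735) and Sec61a1 at -0.85 ± 0.16 (adjusted p = 0.00247). It was also called for Ssr3 at -0.75 ± 0.11 (adjusted p = 0.000484) and P4hb at -0.55 ± 0.12 (adjusted p = 0.00666). With Herpud1 these were 5 of 25, where 5.75% of all genes were called (3.17% higher, 2.59% lower). The arrays of these 4 genes are printed because of those calls and are no separate evidence for them.

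**Figure D3:**
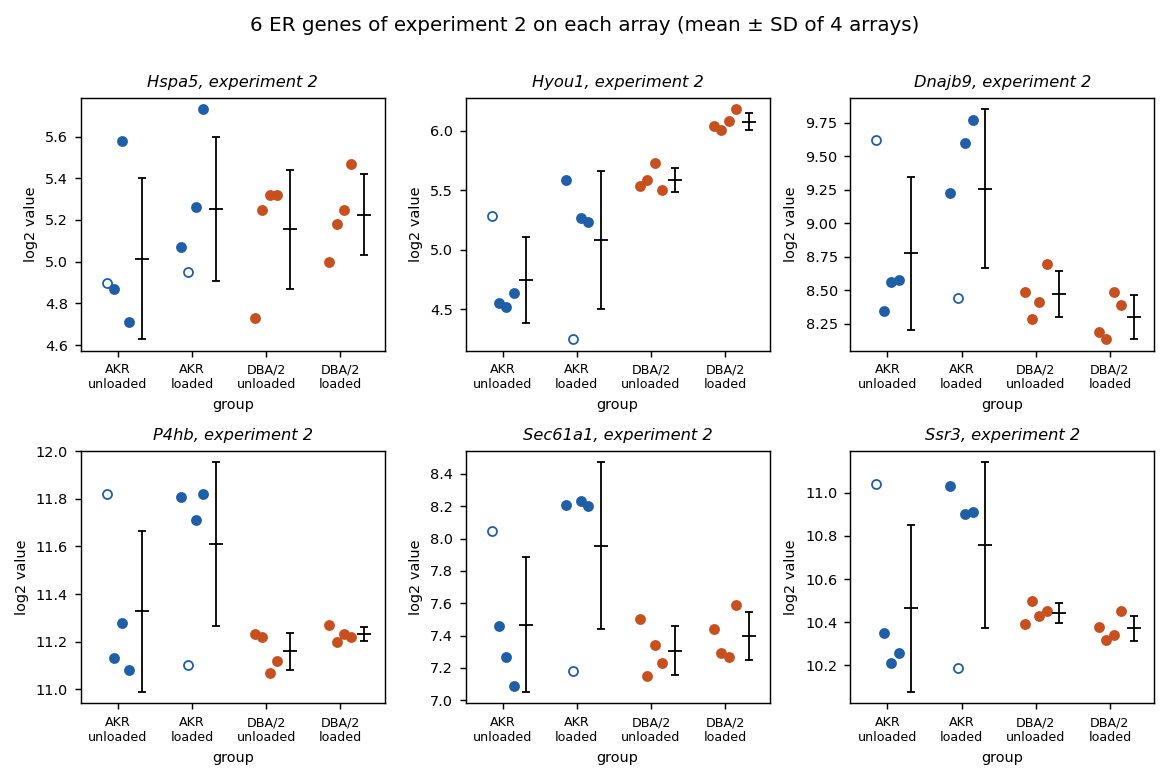
Log2 values of Hspa5, Hyou1, Dnajb9, P4hb, Sec61a1 and Ssr3 in experiment 2 (y axes, each with its own range) on the 4 arrays of each group (x axes), with mean ± SD of 4 arrays. The open points, the 2 arrays that went against their labels, lie with the other AKR group in Dnajb9, P4hb, Sec61a1 and Ssr3.

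Hspa5 was dim on the array of experiment 2 and its values spread widely. They were 4.90, 4.87, 5.58 and 4.71 in unloaded AKR, 5.07, 4.95, 5.26 and 5.73 in loaded AKR, 4.73, 5.25, 5.32 and 5.32 in unloaded DBA/2 and 5.0, 5.18, 5.25 and 5.47 in loaded DBA/2 cells, and all groups overlapped. The difference with loading in DBA/2 cells was 0.07 ± 0.20 log2 (95% interval -0.35 to 0.49), and this interval holds the 0.41 of experiment 1. In loaded DBA/2 cells of experiment 2, Herpud1 and Pdia4 were the 2 members called, both lower, where 8.30% of all genes were called (4.56% higher, 3.74% lower). Hyou1 was at 0.48 ± 0.22 (adjusted p = 0.143), from 5.54, 5.59, 5.73 and 5.50 in unloaded and 6.04, 6.01, 6.08 and 6.18 in loaded DBA/2 cells, which do not overlap. It was called in the fit without the 2 AKR arrays (adjusted p = 0.000873), where 18.9% of genes were called (10.3% higher, 8.64% lower), since all 4 groups share the estimate of the spread.

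**Figure D4:**
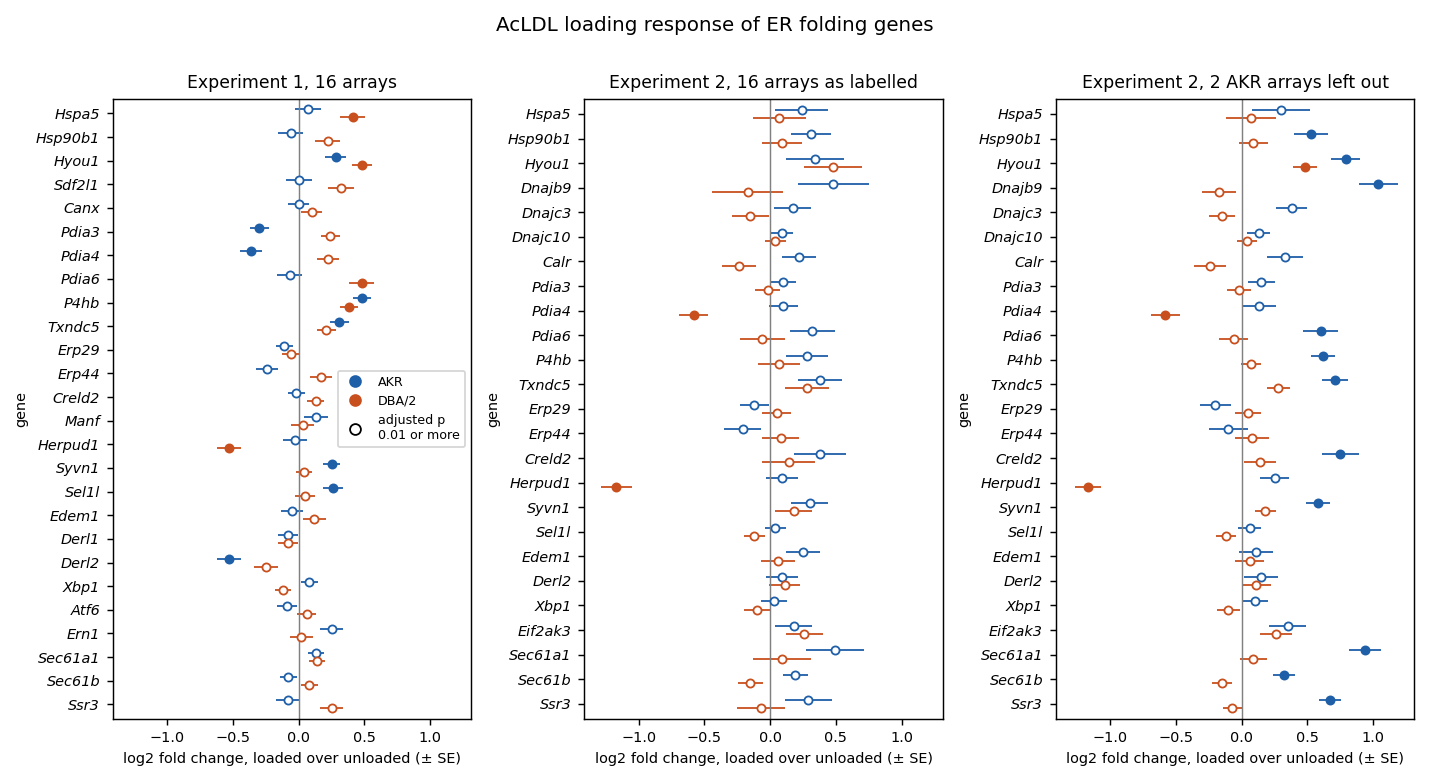
Log2 fold change of loaded over unloaded cells (x axes, ± SE) for each tested gene (y axes) in AKR and DBA/2 cells, in experiment 1, in experiment 2 as labelled and in experiment 2 without 2 AKR arrays. Filled points have an adjusted p under 0.01, and Herpud1 in DBA/2 cells is the lowest filled point in both panels of experiment 2.

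The third question was how the strains differed. In unloaded cells of experiment 1, 8 members were lower and 2 higher in DBA/2 than in AKR cells, 10 of 26 where 28.2% of all genes were called (14.3% higher, 13.9% lower). Pdia6 was lower by 0.69 ± 0.095 log2, a 1.62-fold difference (adjusted p = 2.53e-06), and Pdia3 by 0.47 ± 0.071 (adjusted p = 9.77e-06). Edem1, which hands misfolded glycoproteins to degradation, was lower at -0.56 ± 0.084 (adjusted p = 8.11e-06), Sdf2l1, a partner of the J-domain cochaperones, at -0.55 ± 0.10 (adjusted p = 0.000131) and Derl2 at -0.44 ± 0.092 (adjusted p = 0.00052). The higher members were Hyou1, at 0.29 ± 0.077, and P4hb, at 0.26 ± 0.069 (adjusted p = 0.00392 for each). A second probe of Sec61b was called lower in DBA/2 cells, at -0.28 log2 (adjusted p = 0.00959), while the one used, at 0.03, was not. The median over the members was -0.12 log2, beside 0.00 over all genes.

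The chaperones BiP and Hsp90b1 were at the edge of the threshold in that comparison. Hspa5 differed by -0.32 ± 0.097 log2 (adjusted p = 0.00957) and Hsp90b1 by -0.31 ± 0.094 (adjusted p = 0.00964), and the ranges of the strains overlapped for each. Their calls were lost when any of 11 and any of 13 of the 16 arrays was left out, with adjusted p up to 0.054 and 0.0528. The arrays whose absence left the call in place were unloaded AKR replicate 4, loaded AKR replicate 2 and loaded DBA/2 replicates 1, 2 and 4 for Hspa5, and unloaded AKR replicates 3 and 4 and loaded DBA/2 replicate 1 for Hsp90b1. Without unloaded AKR replicate 1 the count of called members was 6, as Hyou1 and P4hb were lost as well. Hyou1 was also lost without unloaded DBA/2 replicate 4, and P4hb without unloaded AKR replicate 2, unloaded DBA/2 replicate 2 or unloaded DBA/2 replicate 3 (highest adjusted p = 0.0189 for each).

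In loaded cells of experiment 1, 2 members were higher and 3 lower in DBA/2 cells, where 29.7% of all genes were called (15.1% higher, 14.6% lower). Herpud1 was lower at -0.71 ± 0.092 log2, a 1.64-fold difference (adjusted p = 7.94e-07), and Edem1 at -0.38 ± 0.084, and Xbp1 was the third. Hyou1 was higher at 0.48 ± 0.077 and Pdia4 at 0.38 ± 0.083. All 5 calls were kept whichever array was left out. In experiment 2 as labelled, Pdia4 was higher in unloaded DBA/2 cells at 0.54 ± 0.11 (adjusted p = 0.00253), the sole call of 25 where 10.6% of genes were called (4.96% higher, 5.69% lower). Same-numbered arrays of these 2 groups deviated together (correlations of 0.11 to 0.17), and with the replicate number as a block 2 members were called, Pdia4 and Hyou1. Without the 2 arrays Pdia4 was at 0.55 ± 0.12 (adjusted p = 0.00322) and Hyou1 joined it, at 1.02 ± 0.099 (adjusted p = 1.3e-06), where 15.0% of genes were called (7.0% higher, 8.02% lower). The call of Pdia4 was lost without unloaded DBA/2 replicate 1, unloaded DBA/2 replicate 3 or unloaded AKR replicate 4 (highest adjusted p = 0.0113).

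In loaded cells of experiment 2, Hyou1 was higher in DBA/2 cells at 0.99 ± 0.22 log2 (adjusted p = 0.00346), Herpud1 was lower at -1.31 ± 0.12 (adjusted p = 5.02e-07) and Dnajc3, the J-domain cochaperone p58IPK, was lower at -0.55 ± 0.14 (adjusted p = 0.00792), where 12.8% of genes were called (6.79% higher, 6.04% lower). A second probe of Derl2 was called lower in DBA/2 cells as labelled, at -0.61 log2 (adjusted p = 0.00413), while the one used, at -0.33, was not. Without the 2 arrays 1 member was higher and 12 were lower, where 20.6% of all genes were called (10.3% higher, 10.3% lower). Herpud1 was lower at -1.37 ± 0.11, Dnajb9 at -1.23 ± 0.14, Sec61a1 at -0.82 ± 0.11, Pdia6 at -0.69 ± 0.12, Dnajc3 at -0.63 ± 0.11, Ssr3 at -0.57 ± 0.080, P4hb at -0.55 ± 0.083 and Txndc5 at -0.48 ± 0.093 log2, with adjusted p from 7.39e-08 to 0.000898. The other 4 were Calr, Creld2, Syvn1 and Xbp1. The median over the members was -0.37 log2. In loaded cells Hyou1 was called higher and Herpud1 lower in DBA/2 in both experiments. As labelled, Hyou1 and Dnajc3 lost their calls without loaded DBA/2 replicate 3 or loaded DBA/2 replicate 4 (highest adjusted p = 0.0127 for Hyou1). Dnajc3 also lost its call without loaded AKR replicate 1, 3 or 4, loaded DBA/2 replicate 1 or 2, unloaded DBA/2 replicate 2 or 3, or unloaded AKR replicate 3 (highest adjusted p = 0.0325). The stromal sum moved with strain in experiment 1. The macrophage sum did so between its loaded strains, at 30439 to 31838 in AKR and 38507 to 39716 in DBA/2 cells. In experiment 2 the macrophage and B cell sums moved with strain, as given above. The part of these sums in the strain differences was not tested. Probes whose target sequence varies by strain were kept, so strain differences in transcript level and in hybridisation cannot be told apart.

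Of the sensors and their transcription factor, Xbp1 was called between strains and not with loading. Its total transcript was lower in DBA/2 cells of experiment 1 by 0.41 ± 0.064 log2 when unloaded (adjusted p = 1.38e-05) and by 0.61 ± 0.064 when loaded (adjusted p = 2.92e-08). The values were 12.18, 12.02, 12.23 and 12.26 in unloaded AKR, 12.31, 12.25, 12.22 and 12.23 in loaded AKR, 11.84, 11.68, 11.78 and 11.74 in unloaded DBA/2 and 11.67, 11.63, 11.68 and 11.61 in loaded DBA/2 cells, so that no DBA/2 array reached an AKR array. Loading gave 0.08 ± 0.064 in AKR and -0.12 ± 0.064 in DBA/2 cells, neither called, and an interaction of -0.19 ± 0.091 (adjusted p = 0.127). The interaction in experiment 2 was -0.13 ± 0.14 as labelled and -0.20 ± 0.13 without the 2 arrays. In experiment 2 loading gave 0.03 ± 0.099 in AKR cells as labelled, 0.10 ± 0.099 without the 2 arrays and -0.10 ± 0.099 in DBA/2 cells, and the difference between unloaded strains was -0.17 ± 0.099 (adjusted p = 0.295) as labelled and -0.18 ± 0.092 without the 2 arrays. The difference between loaded strains was -0.30 ± 0.099 (adjusted p = 0.0413) as labelled and -0.37 ± 0.092 (adjusted p = 0.00575) without the 2 arrays. The splicing of Xbp1 mRNA was not read from these values.

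BiP and Hsp90b1 gave no further call. In experiment 1 Hsp90b1 was at 0.22 ± 0.094 log2 with loading in DBA/2 cells (adjusted p = 0.107), its interaction was 0.27 ± 0.13 (adjusted p = 0.141), and the loaded strains differed by 0.02 ± 0.097 in Hspa5 and by -0.04 ± 0.094 in Hsp90b1. In experiment 2 as labelled, Hsp90b1 was at 0.31 ± 0.15 with loading in AKR cells (adjusted p = 0.372) and at 0.09 ± 0.15 in DBA/2 cells, and its interaction was -0.22 ± 0.21, or -0.44 ± 0.17 without the 2 arrays (adjusted p = 0.132). The interaction of Hspa5 was -0.17 ± 0.28 as labelled and -0.23 ± 0.29 without the 2 arrays. The strains differed in Hspa5 by 0.14 ± 0.20 when unloaded and by -0.03 ± 0.20 when loaded as labelled, and by 0.10 ± 0.21 and -0.13 ± 0.21 without the 2 arrays. In Hsp90b1 they differed by 0.07 ± 0.15 and -0.15 ± 0.15 as labelled, and by 0.22 ± 0.12 and -0.22 ± 0.12 without the 2 arrays.

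The sensors themselves gave no call in any comparison. With loading in experiment 1, Atf6 was at -0.09 ± 0.075 log2 in AKR and 0.06 ± 0.075 in DBA/2 cells, and Ern1, which encodes IRE1, was at 0.25 ± 0.088 (adjusted p = 0.0235) and 0.02 ± 0.088. Eif2ak3, which encodes PERK, was measured in experiment 2, at 0.18 ± 0.14 in AKR cells as labelled, 0.35 ± 0.14 without the 2 arrays (adjusted p = 0.0783) and 0.26 ± 0.14 in DBA/2 cells. The interaction was 0.15 ± 0.11 for Atf6, -0.24 ± 0.12 for Ern1 and, as labelled, 0.07 ± 0.20 for Eif2ak3, or -0.09 ± 0.19 without the 2 arrays. Between unloaded strains Atf6 was at -0.14 ± 0.075, Ern1 at 0.16 ± 0.088 and Eif2ak3 at -0.24 ± 0.14, and between loaded strains at 0.00 ± 0.075, -0.08 ± 0.088 and -0.17 ± 0.14. Without the 2 arrays Eif2ak3 was at -0.17 ± 0.13 and -0.26 ± 0.13 between unloaded and between loaded strains. Atf6 and Ern1 were close to the median of all values of their array, with group means from 6.05 to 6.19 and from 5.93 to 6.19.

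Genes of the same pathways outside the 35 moved with loading as follows. Of the 11 tested genes of the PERK and Atf4 branch, 10 rose in AKR cells of experiment 1, where 16.2% of all genes were called higher, and the median was 0.84 log2, beside -0.03 for the folding genes and 0.01 for all genes. Chac1, which degrades glutathione, rose by 2.94 ± 0.10, Trib3, a pseudokinase that binds Atf4, by 2.62 ± 0.091, Asns, asparagine synthetase, by 1.93 ± 0.075 and Atf4 by 0.95 ± 0.066 log2. In DBA/2 cells 2 of the 11 were higher and 2 lower, where 12.8% of all genes were called, with a median of 0.09 log2, and 9 of the 11 had a called negative interaction, where 8.20% of all genes had one, -2.68 ± 0.14 for Chac1 (adjusted p = 5.04e-12). In experiment 2 none of the 12 was called in AKR cells as labelled, with a median of 0.71 log2, and 11 of 12 were called higher without the 2 arrays, where 10.1% of all genes were, with a median of 1.30 and Chac1 at 4.31 ± 0.27 log2.

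**Figure D5:**
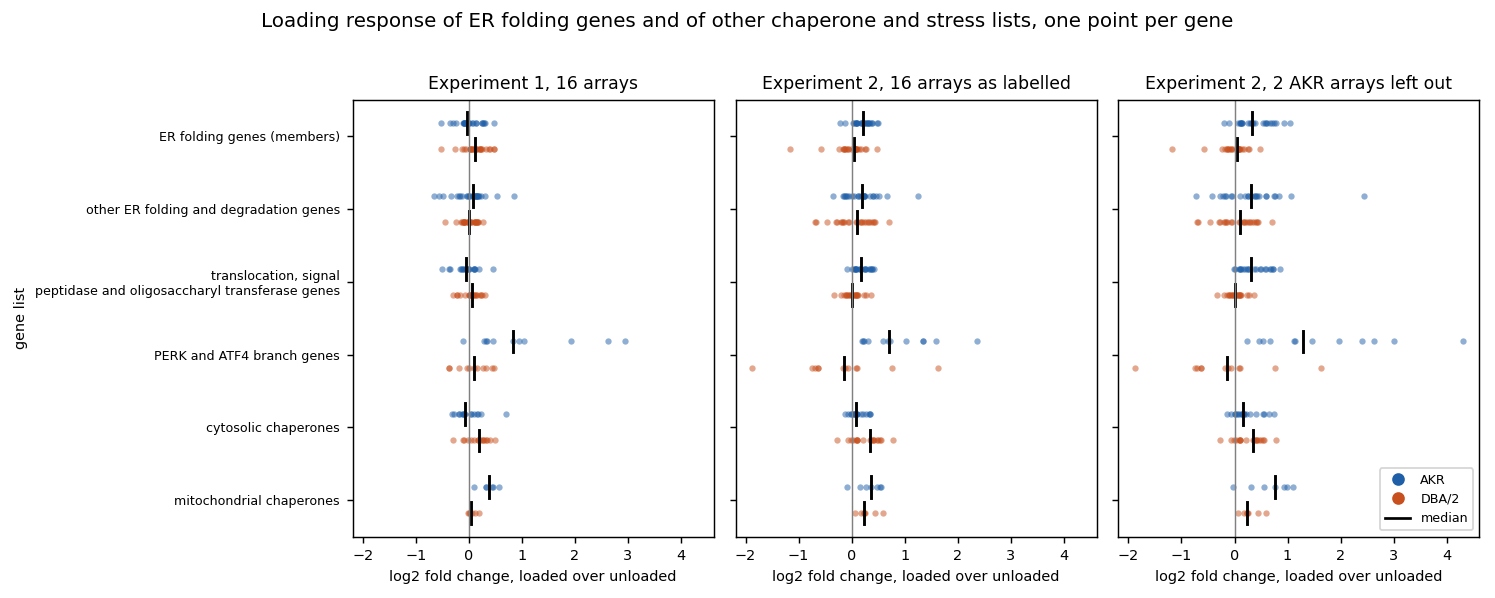
Log2 fold change of loaded over unloaded cells (x axes) for each tested gene, a point each, of the ER folding genes and 5 other lists (y axis) in AKR and DBA/2 cells, with a black bar at the median. The PERK and ATF4 branch reaches 2.94 log2 in AKR cells of experiment 1, where the ER folding genes lie between -0.53 and 0.48.

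Among 28 other ER folding and degradation genes tested in experiment 1, 4 rose and 4 fell with loading in AKR cells, near the share of all genes (31.3%), and the median was 0.08 log2. Fkbp11, an ER prolyl isomerase, rose by 0.86 ± 0.067 log2 and Edem2, a mannosidase of ER-associated degradation, by 0.53 ± 0.064. Cnpy3, a chaperone of Toll-like receptors, fell by 0.66 ± 0.068 and Erlec1, an ER lectin, by 0.57 ± 0.081. Fkbp11 and Edem2 had called negative interactions of -0.77 ± 0.094 and -0.60 ± 0.091, and in DBA/2 cells Cnpy3, down by 0.44 ± 0.068, was the sole gene of the list called. In AKR cells of experiment 2 none of 25 passed as labelled, and without the 2 arrays 8 rose and 1 fell, where 19.7% of all genes were called, Fkbp11 at 2.45 ± 0.23, Edem2 at 0.75 ± 0.10 and Cnpy3 at -0.73 ± 0.17.

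Translocation, signal peptidase and oligosaccharyl transferase genes showed 1 of 20 higher and 3 lower in AKR cells of experiment 1, where 31.3% of all genes were called. Srprb, a subunit of the signal recognition particle receptor, rose by 0.45 ± 0.092 log2, while Tram1, a membrane protein beside the Sec61 channel, fell by 0.50 ± 0.071, Srp9, of the signal recognition particle, by 0.37 ± 0.080 and Spcs1, of the signal peptidase, by 0.35 ± 0.072. Tram1 had a called interaction of 0.52 ± 0.10 and Srprb one of -0.67 ± 0.13. Without the 2 arrays of experiment 2, 9 of 22 were higher and none lower in AKR cells, where 10.1% of all genes were called higher, with a median of 0.31 log2, and Tram1 was at 0.40 ± 0.098, against its fall in experiment 1. As labelled none of the 22 was called.

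Chaperones of other compartments were set beside them. Of 6 mitochondrial chaperones and proteases tested in experiment 1, 5 rose in AKR cells, where 16.2% of all genes were called higher, and none passed in DBA/2 cells, where 12.8% were called. The rises were Lonp1 by 0.58 ± 0.072, Hspd1 by 0.45 ± 0.073, Hspa9 by 0.43 ± 0.063 and Clpp by 0.33 ± 0.067 log2. The difference between strains was itself called for Lonp1, at -0.51 ± 0.10, and Hspa9, at -0.40 ± 0.089. In AKR cells of experiment 2 none of 7 was called as labelled, and 4 rose without the 2 arrays, where 10.1% of all genes did, Hspa9 by 1.11 ± 0.11. Of 16 cytosolic chaperones tested in experiment 1, 2 rose and 1 fell in AKR cells, where 31.3% of all genes were called. In DBA/2 cells of experiment 1, 4 rose, where 6.42% of all genes were called higher. Hsph1 rose by 0.71 ± 0.077 in AKR and 0.41 ± 0.077 in DBA/2 cells. In unloaded cells of experiment 1, 10 of these 16 were lower in DBA/2 than in AKR cells and none was higher, with a median of -0.25 log2. There 13.9% of all genes were called lower and 14.3% higher. The values of this list in experiment 2 are not given here.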

How the data were processed

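The log2 values were used as the authors deposited them, after the authors had quantile-normalized them with lumi 2.6.0. The experiments were normalized apart, so no level was set across experiments. The removal by the authors of polymorphic and undetected probes was not repeated. Probes were named through GRCm38.p6 gene tables (20984 of 24613 probes with 1 gene in experiment 1, 23978 of 25697 in experiment 2). Probes with at least 1 group mean above the array-wide median were kept (13339 and 13732, and 13911 without the 2 arrays that went against their labels). Strain, loading and the interaction between them were fitted over the 16 arrays of an experiment with limma 3.58.1 (R 4.3.3) and eBayes. A gene was read from its brightest kept probe. The script was tested on simulated data. The members, the other lists and the marker lists were chosen with earlier results of these data known, so no p was adjusted over a list and no list was tested.

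In each comparison the called members are named, all where 8 or fewer passed in a direction and otherwise the 8 with the smallest p. Hspa5, Hsp90b1, Xbp1, Atf6, Ern1 and Eif2ak3 are given whether called or not, values per array are printed for Hspa5 and for members with a called interaction of at least 0.5 log2, and at most 4 genes of another list are named. Values per array of Hyou1 and Xbp1, members called beyond 8 and second probes of Sec61b and Derl2 were added after their values were seen. Alternatives were no filter, 50 added to the linear values, arrays centred on their median, the replicate number as a block, trend and robust options of eBayes, the mean of a gene's probes, the compared groups alone, and each array left out. Replicate numbers were checked as pairs by correlating the deviations of same-numbered arrays from their group means, and every pair was over 0.1 between unloaded AKR and unloaded DBA/2 cells of experiment 2 alone. The 4 arrays per group limit the precision. Promoter sequence came from RefSeq. Figures were drawn with matplotlib under Python.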

Additional observations from a re-analysis of the deposited data

Results flagged for a closer look

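Loading responses differed between the strains, by the limma interaction test, for Herpud1 in both experiments (-0.50 and -1.26 log2) and for Pdia3 (0.54), Pdia4 (0.59) and Pdia6 (0.54) in experiment 1. In experiment 1 these were 4 of 26 members, near the 15.8% of all genes called. In experiment 2 as labelled, 0.994% of all genes were called. There Pdia3 (-0.11), Pdia4 (-0.68) and Pdia6 (-0.37) had the opposite sign and were not called. The experiment 1 calls of Herpud1 and Pdia6 were lost when some single arrays were left out.

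An array stood apart from the other 3 of its group, by Dixon's test, in 4 of 104 groups of 4 arrays in experiment 1 and in 9 of 100 in experiment 2, where chance alone gives about 1 in 20. In experiment 1 these were Derl1 in loaded DBA/2 cells at 5.90 log2 against 5.77 to 5.79, Herpud1 in unloaded AKR cells at 7.98 against 8.26 to 8.29, Hyou1 in unloaded AKR cells at 6.68 against 6.78 to 6.80, and Sel1l in loaded DBA/2 cells at 9.62 against 9.83 to 9.87. In DBA/2 cells of experiment 2 Edem1 stood apart with 5.87 against 6.04 on each other array when loaded and with 6.23 against 5.80 to 5.86 when unloaded, and Hspa5 with 4.73 against 5.25 to 5.32 when unloaded.

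The other 6 belong to the 2 arrays of experiment 2 that went against their labels. The one labelled unloaded AKR was high in Hyou1, at 5.28 against 4.52 to 4.64, and in Ssr3, at 11.04 against 10.21 to 10.35. The one labelled loaded AKR was low in P4hb, at 11.10 against 11.71 to 11.82, in Sec61a1, at 7.18 against 8.20 to 8.23, in Ssr3, at 10.19 against 10.90 to 11.03, and in Syvn1, at 9.80 against 10.35 to 10.45. The cause was not tested.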

How the results depend on the processing

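Of the 39 called differences of single members, 26 kept their call under every alternative run, 13 lost it under at least 1, and none changed sign. Leaving out 1 array at a time moved the count of called members in experiment 1 between 6 and 10 (DBA/2 against AKR, unloaded), 5 and 6 (loaded), 5 and 8 (loading in AKR), 4 and 5 (loading in DBA/2) and 2 and 6 (interaction). In experiment 2 it moved between 0 and 2, 1 and 8, 0 and 0, 2 and 2, and 1 and 1 in the same order. The count for loaded strains of experiment 2, 3 as labelled, was 6 without unloaded AKR replicate 1, 8 without loaded AKR replicate 2 and 1 without loaded DBA/2 replicate 3 or 4. The count for unloaded strains was 2 without unloaded AKR replicate 1, loaded AKR replicate 1 or loaded AKR replicate 2, and 0 without unloaded AKR replicate 4 or unloaded DBA/2 replicate 1 or 3. The interaction of experiment 1 gave 6 without unloaded AKR replicate 4.

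Leaving out both arrays that went against their labels gave 2 members between unloaded strains, 13 between loaded strains, 11 with loading in AKR cells and 5 in the interaction. The eBayes trend and robust options gave 5 between loaded strains of experiment 2. With the replicate number as a block the counts of experiment 2 were 2 between unloaded strains, 6 between loaded strains and 2 in the interaction, and no count of experiment 1 moved by over 1.5 times. Same-numbered arrays correlated from 0.01 to 0.16 in experiment 1 and from -0.30 to 0.52 in experiment 2 in their deviations from the group means. The values of 0.52, 0.50, -0.30 and -0.29 were all between unloaded and loaded AKR cells of experiment 2. Those groups hold the 2 arrays that went against their labels, whose part in these values was not tested. The other pairs of that experiment were at 0.01 to 0.17. Values of same-numbered arrays were above the mean with the other numbers in 24 of 24 and 22 of 24 pairs. Deviations from a group mean cancel within the group, which pushes the other numbers the opposite way. The counts therefore mostly restate that the value was positive, at most a hint from the data of shared variation. All 4 pairs were over 0.1 for the unloaded strains of experiment 2 and for no other 2 groups. Without the probe filter Hspa5, Hsp90b1 and P4hb (unloaded strains), Sel1l (loading in AKR) and Herpud1 (interaction) of experiment 1 and Dnajc3 (loaded strains) of experiment 2 lost their calls, with more probes tested. With the compared groups alone Hspa5 and Hsp90b1 (unloaded strains, experiment 1) and Pdia4 (unloaded) and Hyou1 (loaded) of experiment 2 lost theirs, with fewer arrays in the fit. Dim probes limit Hspa5, Erp44 and Hyou1 in experiment 2 and Atf6, Ern1, Canx, Manf and Derl1 in experiment 1. Leaving out a further array beside the 2 was not run.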
